A study of Mus musculus with 6 samples.

Results

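The immunity-related p47 GTPases were examined in mouse liver after knockdown of the lncRNA Hnf1aos1. The 7 genes Irgm1, Irgm2, Igtp, Iigp1, Ifi47, Tgtp1 and Tgtp2 were taken by symbol from a count table of 40803 mouse genes, and all 7 passed the filter on low counts that left 16327 genes for testing. The rule uses gene symbols and no measured value, but the members were chosen with earlier results of these data known.

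RNA-seq was performed on the livers of 6 male C57BL/6J mice, with 1 library per mouse. In the scramble group (rAAV8-Scramble, n = 3), mice of about 6 weeks received a recombinant adeno-associated virus of serotype 8 with a scrambled short hairpin RNA by tail vein, and in the knockdown group (rAAV8-Hnf1aos1, n = 3) the same kind of virus carried a hairpin against Hnf1aos1. Livers were taken 4 weeks later from normally fed mice. Mice of both groups therefore carried an AAV8 vector with a hairpin driven by the U6 promoter, which is active in every cell type, and a CAG-driven EGFP reporter, and no liver without virus was compared here.

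The p47 GTPases, or immunity-related GTPases, are proteins that mouse cells make in response to interferons, above all interferon gamma. Members of the GKS type have the usual lysine in the nucleotide-binding loop (P-loop) and act as effectors, which load onto the vacuoles of intracellular parasites and bacteria and break them open. Members of the GMS type carry a methionine there, sit on the membranes of host organelles and keep the effectors inactive until they are needed. Irgm1, Irgm2 and Igtp (Irgm3) are the regulators, while Iigp1 (Irga6), Ifi47 (Irgd), Tgtp1 and Tgtp2 (Irgb6) are effectors. Gamma-activated sequences (GAS) are the sites best known for interferon gamma, and interferon-stimulated response elements (ISRE) those for interferons of type I. The split is not strict, since interferon gamma also induces Irf1, which acts on p47 GTPase promoters.

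The P-loop codons are shown because they separate regulators from effectors. They were read 5′ to 3′ from the GENCODE M21 transcripts of GRCm38, with the codon of the residue that differs between the types in capitals.
Irgm1, Irgm2 and Igtp: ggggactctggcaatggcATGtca
Ifi47: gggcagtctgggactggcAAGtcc
Tgtp1 and Tgtp2: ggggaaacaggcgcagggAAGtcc
The 3 regulators shared all 24 bases and encoded methionine, and so did Tgtp1 and Tgtp2 with one another, encoding lysine. Iigp1 also encoded lysine.

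Promoters of 6 of the 7 genes were found in the RefSeq table of GRCm38.p6, which holds the 250 bases before and 50 bases after each gene's RefSeq start. The windows below are shown because they hold the letters searched for, TTCNNNGAA for GAS, and GAAA, any 2 bases and again GAAA for ISRE, on either strand. Each is written 5′ to 3′ on the strand of its gene, with the matched letters in capitals.
Tgtp1, chr11:48992289-48992368, − strand: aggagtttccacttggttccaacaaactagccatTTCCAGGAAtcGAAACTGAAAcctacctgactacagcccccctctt
Tgtp2, chr11:49064248-49064327, − strand: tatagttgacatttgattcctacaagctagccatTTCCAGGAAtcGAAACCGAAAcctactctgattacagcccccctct
Igtp, chr11:58199477-58199555, + strand: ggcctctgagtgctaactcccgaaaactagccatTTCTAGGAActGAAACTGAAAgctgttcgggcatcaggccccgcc
Irgm2, chr11:58214868-58214947, + strand: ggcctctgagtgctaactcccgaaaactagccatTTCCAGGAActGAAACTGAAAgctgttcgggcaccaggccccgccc
Irgm1, chr11:48871421-48871495, − strand: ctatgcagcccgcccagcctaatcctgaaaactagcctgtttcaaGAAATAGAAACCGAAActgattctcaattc

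In Tgtp1, Tgtp2, Igtp and Irgm2 a GAS match was followed by an ISRE match with 2 bases between them. Counted from the gene's RefSeq start, the GAS match began at position −88 in Tgtp1, −81 in Tgtp2, −45 in Igtp and −75 in Irgm2. GENCODE M21 places some starts elsewhere. The windows of Irgm2, Tgtp1 and Irgm1 lie inside the GENCODE gene spans given below. Irgm1 held 2 ISRE matches that overlap each other and no GAS match, and the 300 bases of Ifi47 held neither set of letters. Of all 32851 promoters of this length in the table, 8.3% held the GAS letters, 3.44% the ISRE letters and 0.454% both. Compared position by position without gaps, the windows of Igtp and Irgm2 were identical at 77 of 79 bases (97.5%), and those of Tgtp1 and Tgtp2 at 57 of 80 (71.2%). The Tgtp1 and Tgtp2 windows fall out of register after the ISRE match, so their value understates how alike they are. A match describes these letters only, and binding was not measured.

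Before the members, the targeted lncRNA was checked. Normalized counts of Hnf1aos1, which are counts divided by the TMM-scaled library size relative to the mean size, were 512, 491 and 620.3 in scramble replicates 1, 2 and 3 and 278, 258 and 433 in knockdown replicates 1, 2 and 3. All knockdown libraries lay below all scramble libraries, and knockdown replicate 3 kept the highest count. The log2 fold change (knockdown over scramble) was −0.74 (SE 0.195), which was not called (edgeR's quasi-likelihood test, adjusted p = 0.0625 by Benjamini-Hochberg across 16327 genes). Hnf1aos1 is annotated as antisense, so its reads are uncertain if strands were not separated in counting. Gene totals ranged from 14704746 to 19462398 counts per library, and they were lower in all 3 scramble libraries (up to 16532510) than in all 3 knockdown libraries (from 18021614). The summed level of 8 hepatocyte markers was 81371 to 91075 CPM (counts scaled to a common library size) in the scramble and 89024 to 103140 in the knockdown libraries, with Alb and the other 7 present in all. That 3 mice per group set the precision applies to each value below, and in bulk liver, fewer cells of a type and less RNA per cell cannot be told apart.

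Most p47 GTPases rose after Hnf1aos1 knockdown. Calls required an adjusted p below 0.05, and by this rule 5 of the 7 members were higher in the knockdown group and 0 were lower, against 3.09% of all tested genes called higher and 6.32% called in either direction. The called genes were the regulators Irgm1, Irgm2 and Igtp and the effectors Iigp1 and Ifi47. Tgtp1 had the largest fold change of the family without being called, and Tgtp2 had the smallest and was not called. The median log2 fold change over the 7 members was 1.65, where the median over all tested genes was −0.00040. In 6 of 7 members every knockdown library lay above every scramble library, a separation that 15.2% of all tested genes showed. Because the members were chosen with earlier results known, these shares describe the list and test nothing. The number of called members depended on single libraries, and between 1 and 7 of the 7 were called when 1 library was left out. It was 1 without scramble replicate 2 or 3 or knockdown replicate 2, and 2 without replicate 1 of either group. It was 7 without knockdown replicate 3. Irgm2 was called in all 6 of these fits, which have fewer samples.

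**Figure D1:**
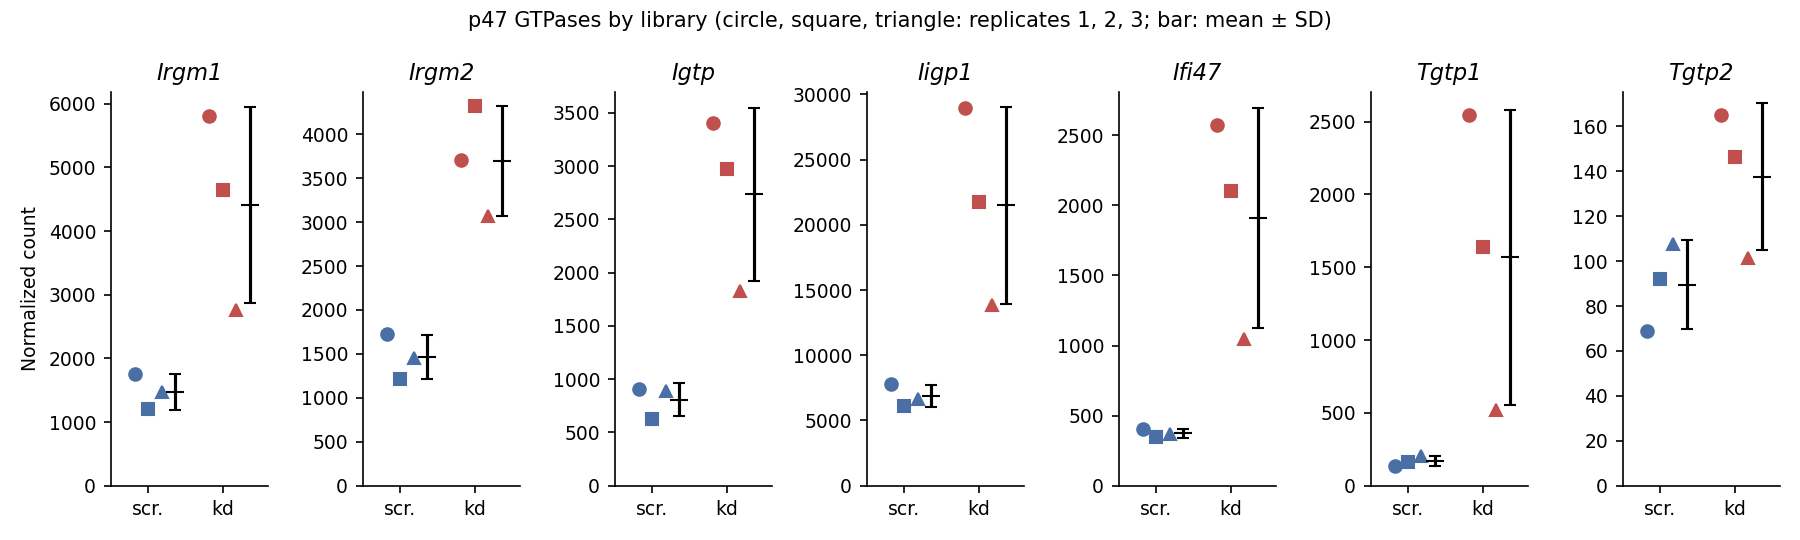
Normalized counts of the 7 p47 GTPases (y axis, one linear scale per gene from 0) in the scramble (scr., blue) and knockdown (kd, red) libraries; circles, squares and triangles are replicates 1, 2 and 3, and bars are the mean ± SD of 3 mice. The red symbols lie above the blue ones for every gene except Tgtp2, and the red triangle, knockdown replicate 3, is the lowest red symbol in all 7 panels.

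Among the regulators, Irgm2 showed the most even rise. Irgm2 encodes a GMS protein of the Golgi and is located on the + strand of GRCm38, chr11:58199618-58222782, as annotated by GENCODE M21. Its normalized counts were 1722, 1216 and 1448 in scramble replicates 1, 2 and 3 and 3702, 4323 and 3069 in knockdown replicates 1, 2 and 3. The lowest knockdown library was 1.78 times the highest scramble library. The means were 1462 ± 253 (SD, n = 3) and 3698 ± 627 (SD, n = 3), a 2.53-fold difference with a log2 fold change of 1.34 (SE 0.154, adjusted p = 0.00272, edgeR). Irgm2 was the member with the smallest standard error. It was called in 17 of 17 alternative fits, with an adjusted p of at most 0.0348 (edgeR, 1 library left out).

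Igtp, the regulator found on the endoplasmic reticulum and on lipid droplets, lies on the + strand at chr11:58199556-58207591, so that its annotated span overlaps that of Irgm2. Counts were 905, 630.0 and 891 in scramble replicates 1, 2 and 3 and 3404, 2971 and 1826 in knockdown replicates 1, 2 and 3. The groups were separated by a gap of 2.02 times. The mean rose from 809 ± 155 (SD, n = 3) to 2734 ± 815 (SD, n = 3), and the log2 fold change was 1.76 (SE 0.269, adjusted p = 0.0229, edgeR). Exons of Igtp and Irgm2 share 162 bases on the same strand, which is 8.01% of the exonic bases of Igtp and 4.39% of those of Irgm2. Igtp was not called in 6 of 17 alternatives (adjusted p up to 0.0982, edgeR without scramble replicate 3).

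Irgm1, whose product sits on the Golgi, mitochondria and lysosomes and whose loss leaves mice susceptible to intracellular infections, is located on the − strand at chr11:48861968-48871683. It was measured at 1759, 1196 and 1466 normalized counts in scramble replicates 1, 2 and 3 and at 5812, 4643 and 2758 in knockdown replicates 1, 2 and 3. The groups did not overlap, and knockdown replicate 1 exceeded knockdown replicate 3 by more than any scramble library differed from another. On average it rose from 1474 ± 281 to 4404 ± 1541 (SD, n = 3 each). With a log2 fold change of 1.58 (SE 0.308), Irgm1 was called by a narrow margin (adjusted p = 0.0458, edgeR), and 7 of 17 alternatives no longer called it (adjusted p up to 0.178, edgeR without scramble replicate 3).

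Iigp1, the effector that coats parasite vacuoles early, was the most abundant member. GENCODE M21 places it on chromosome 18 (+ strand, 60376027 to 60392634, GRCm38). Normalized counts were 7819, 6138 and 6624 in scramble replicates 1, 2 and 3 and 28925, 21717 and 13853 in knockdown replicates 1, 2 and 3. Even the lowest knockdown library stood 1.77 times above the highest scramble library. The means of 6860.4 ± 865 and 21498 ± 7538 (SD, n = 3 each) differed by a log2 fold change of 1.65 (SE 0.261, adjusted p = 0.0188, edgeR), and 4 of 17 alternatives did not call it (adjusted p up to 0.119, edgeR without scramble replicate 3).

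Ifi47, the GKS protein of the Irgd type, is located on the + strand at chr11:49076587-49096974. It had 407, 346 and 367 normalized counts in scramble replicates 1, 2 and 3 and 2577, 2102 and 1045 in knockdown replicates 1, 2 and 3. Its scramble libraries were close to each other and its knockdown libraries were not, with a gap of 2.57 times between the groups. The means were 373 ± 31.2 (SD, n = 3) and 1908 ± 784 (SD, n = 3). The log2 fold change of 2.35 (SE 0.369, adjusted p = 0.0336, edgeR) was the largest among the called members and stood at position 47 among 16327 genes ordered from the most raised. Exons of Ifi47 share 4.49% of their bases with Olfr56 on the same strand and 4.29% with Gm12188, a pseudogene, on the opposite strand. Ifi47 was not called in 6 of 17 alternatives (adjusted p up to 0.139, edgeR without scramble replicate 3).

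Tgtp1 and Tgtp2 encode near-identical effectors of the Irgb6 type, on the − strand at chr11:48985327-48994172 and chr11:49057194-49064206. Tgtp1 had 139, 166 and 206 normalized counts in scramble replicates 1, 2 and 3, against 2544, 1640.2 and 523 in knockdown replicates 1, 2 and 3. The groups did not overlap, but knockdown replicate 3 was far below the other knockdown libraries. The means of 170.0 ± 33.8 and 1569 ± 1013 (SD, n = 3 each) gave a 9.23-fold difference and a log2 fold change of 3.21 (SE 0.702), the 18th of 16327 in size, which was not called (adjusted p = 0.0827, edgeR). Tgtp1 was called in 6 of 16 alternatives, among them DESeq2 (adjusted p = 2.95e-05) and the fit without knockdown replicate 3 (adjusted p = 0.000261, edgeR).

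Tgtp2 had 68.7, 92.2 and 108 normalized counts in scramble replicates 1, 2 and 3, against 165, 146 and 101.4 in knockdown replicates 1, 2 and 3. It was the only member whose groups overlapped, with knockdown replicate 3 below scramble replicate 3. The means were 89.6 ± 19.7 and 138 ± 32.7 (SD, n = 3 each), and the log2 fold change of 0.62 (SE 0.220) was not called (adjusted p = 0.116, edgeR). It was called in 3 of 16 alternatives, namely with library sizes from the spike-ins, with no filter on low counts and without knockdown replicate 3.

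The counts of this pair are uncertain, because only uniquely mapped reads were counted. Of the 150-base windows of the annotated Tgtp2 transcripts, 68.4% also occur in Tgtp1, and 64.9% of those of Tgtp1 occur in another gene, 62.5% in Tgtp2. For Igtp and Irgm2 the same share was 0.739% and 0.437%, and for Irgm1, Iigp1 and Ifi47 it was 0. Exons of Tgtp1 also share 6.96% of their bases with Gm12185 on the same strand. The ratio of Tgtp1 to Tgtp2 counts was 2.01, 1.80 and 1.91 in scramble replicates 1, 2 and 3 and 15.4, 11.2 and 5.15 in knockdown replicates 1, 2 and 3. All 3 knockdown ratios exceeded all 3 scramble ratios, with a difference of 2.34 on the log2 scale (two-sided exact permutation p = 0.1, which is as low as 3 against 3 can go, adjusted p = 0.133 over 4 ratios). Summing both genes to 1 feature gave a log2 fold change of 2.72 that was not called (adjusted p = 0.0933, edgeR).

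**Figure D2:**
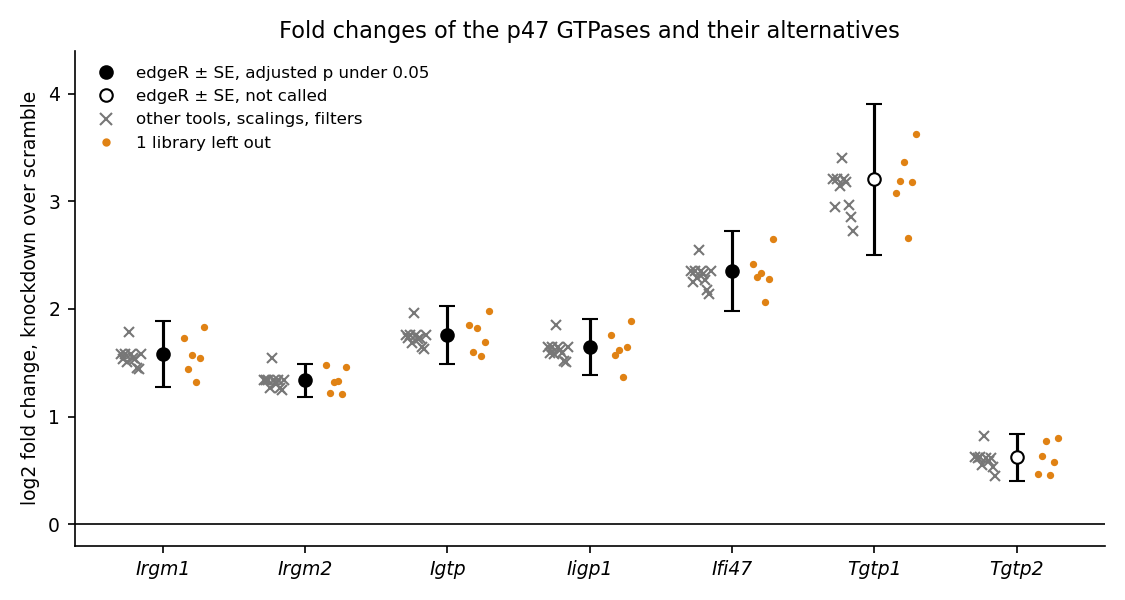
log2 fold change of each p47 GTPase, knockdown over scramble (y axis); black circles are the edgeR estimates ± SE, filled where the adjusted p was under 0.05, grey crosses are other tools, scalings and filters, and orange points are fits with 1 library left out. All points of all 7 genes lie above 0, with Tgtp1 spread between 2.66 and 3.63 and Tgtp2 between 0.45 and 0.82.

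The members differed between the groups in the same direction but not by equal amounts. Relative to the scramble mean, knockdown replicates 1, 2 and 3 stood at 15.0, 9.65 and 3.07 times for Tgtp1, at 6.90, 5.63 and 2.80 times for Ifi47, and at 2.53, 2.96 and 2.10 times for Irgm2. Knockdown replicate 3 was the lowest knockdown library for all 7 members, and knockdown replicate 1 was the highest for 6 of 7, the exception being Irgm2. Among the knockdown libraries, Hnf1aos1 was highest in replicate 3 (433 normalized counts), while replicates 1 and 2 were close (278 and 258). A relation between its level and that of the members was not tested. Ratios within libraries were compared for 3 further pairs. The 4 pairs were picked from 21 possible ones without a rule, and their ratios restate differences between the fold changes given above. The ratio of Ifi47 to Irgm2 was 0.237, 0.284 and 0.254 in scramble replicates 1, 2 and 3 and 0.696, 0.486 and 0.341 in knockdown replicates 1, 2 and 3, higher in every knockdown library by 0.92 on average on the log2 scale. The ratio of Tgtp1 to Igtp was higher by 1.22 on the same scale. Each of these differences stood at the lowest value that 3 against 3 permits in a two-sided exact permutation test (p = 0.1, adjusted p = 0.133 over 4 ratios). The ratio of Igtp to Irgm2, the regulators with the near-identical windows, differed by 0.39 with overlapping groups (exact two-sided permutation test, p = 0.2, adjusted p = 0.2).

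Levels were compared between genes by the deposited TPM values, relative transcript numbers that account for gene length. The 7 members summed to 528, 397 and 482 TPM in scramble replicates 1, 2 and 3 and to 1976, 1485 and 912 TPM in knockdown replicates 1, 2 and 3. The lowest knockdown sum was above the highest scramble sum. Iigp1 led in both groups with 257 ± 32.3 and 768 ± 292 TPM (SD, n = 3 each), which was 54.9% ± 1.70 of the family in scramble and 52.6% ± 1.68 in knockdown libraries.

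In the scramble group Irgm1 (69.5 ± 13.5 TPM), Irgm2 (54.3 ± 9.57) and Igtp (52.2 ± 10.9) followed (SD, n = 3 each), and their ranges over the 3 mice overlapped. Ifi47 (24.2 ± 2.12 TPM), Tgtp1 (7.91 ± 1.78) and Tgtp2 (4.16 ± 1.00) came next, each with a range that did not overlap its neighbours. In the knockdown group the order was Irgm1 (198 ± 74.4 TPM), Igtp (168 ± 53.7), Irgm2 (130.0 ± 21.6), Ifi47 (118 ± 51.1) and Tgtp1 (69.8 ± 46.8), and each of these overlapped the next. Tgtp2 (6.06 ± 1.58 TPM) stayed below all other members. Among the shares of the family total, that of Ifi47 was 5.18% ± 0.294 in scramble and 7.91% ± 0.856 in knockdown libraries, that of Tgtp1 was 1.71% ± 0.448 and 4.37% ± 1.73, and that of Irgm2 was 11.5% ± 0.430 and 9.50% ± 2.44 (SD, n = 3 each). The levels of Tgtp1 and Tgtp2 are lower limits if reads shared by both were dropped.

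**Figure D3:**
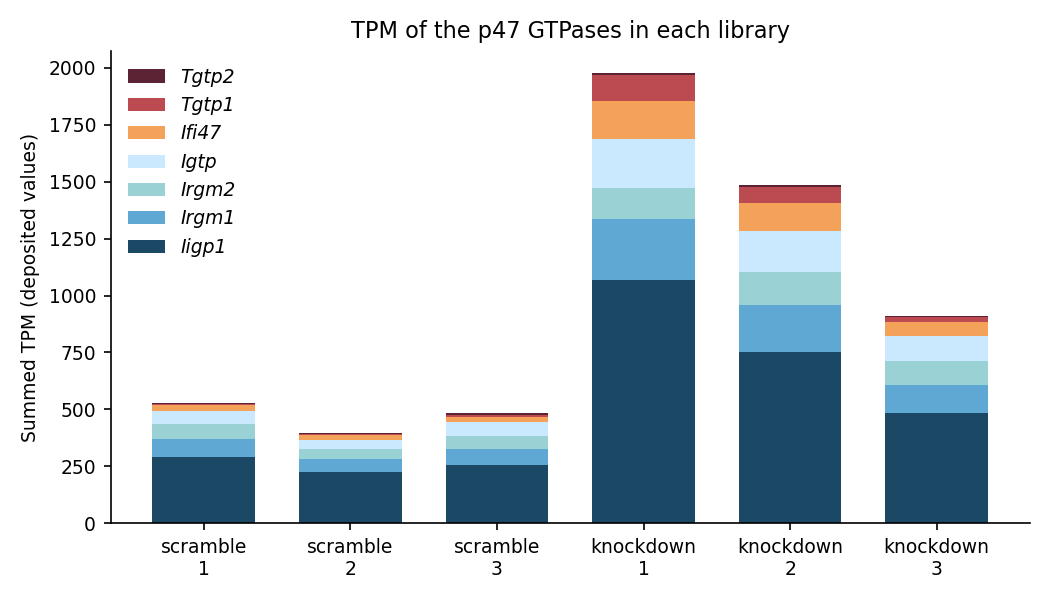
Deposited TPM values of the 7 p47 GTPases stacked to their sum (y axis, linear from 0) in each of the 6 libraries (x axis); there are no error bars because each bar is 1 mouse. The sums are 397 to 528 TPM in the scramble and 912 to 1976 TPM in the knockdown libraries, and Iigp1, the lowest block, is the largest part of each.

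Further genes of the family were read from a list of 11, of which 9 are in the count table and 7 were tested. Here 3 of 7 were called higher and 0 lower, where 3.09% of all tested genes were called higher. The median log2 fold change of these 7 was 0.42. Gm12250 (Irgb10), an effector-type gene next to Igtp that GENCODE M21 lists as a pseudogene, had 66.7, 61.5 and 72.6 normalized counts in scramble replicates 1, 2 and 3 and 632, 588 and 258 in knockdown replicates 1, 2 and 3. Its groups were far apart, with a log2 fold change of 2.88 (SE 0.391, adjusted p = 0.0176, edgeR). Gm5431 (1.19, SE 0.213, adjusted p = 0.0111) and 9930111J21Rik1 (0.97, SE 0.217, adjusted p = 0.0277), both edgeR log2 fold changes, were also called.

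Other family genes did not pass the test. Gm12185 had a log2 fold change of 0.42 (SE 0.345) and Irgq, a distant relative, 0.08 (SE 0.0883). Gm4841 and F830016B08Rik had negative log2 fold changes of −0.65 (adjusted p = 0.104, edgeR) and −0.29 (adjusted p = 0.199, edgeR). For F830016B08Rik all 3 knockdown libraries, at 2288, 3204 and 3193 normalized counts in replicates 1, 2 and 3, were below all 3 scramble libraries, at 3752, 3353 and 3519. Irgc1, a gene of the testis, had 0 counts in all libraries, and 9930111J21Rik2 was below the filter. In the promoter table, Gm12185 held the GAS and ISRE letters and Gm12250 held 1 GAS and 2 ISRE matches. Gm5431 was called and held neither set of letters, while Gm12185 held both and was not called. Counts of Gm12185 were low, at 9.90 to 23.5 normalized counts, with all knockdown libraries above all scramble libraries. A relation of the letters to the calls was not tested.

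The 3 interferon genes that were read, Ifng, Ifna4 and Ifnb1, were near the limit of detection. Ifng, the ligand that induces the family most strongly, had 0, 0 and 1.10 normalized counts in scramble replicates 1, 2 and 3 and 3.81, 0 and 0 in knockdown replicates 1, 2 and 3, and was not tested. Ifna4 and Ifnb1, ligands of type I, had 0 counts in all 6 libraries. A count of 0 in these libraries allows up to 3 counts of a gene per library, so a difference in these 3 ligands was not detectable at this depth.

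Of 11 genes of interferon gamma signalling, 10 were tested, with a median log2 fold change of 0.12. Where 3.09% of all tested genes were called higher, 1 of these 10 was called higher and 0 lower. This was Ifngr2, the signalling chain of the receptor, with 231, 285 and 237 normalized counts in scramble replicates 1, 2 and 3 and 521, 521 and 333 in knockdown replicates 1, 2 and 3. As for the p47 GTPases, knockdown replicate 3 was the lowest of its group and the groups did not overlap, with a log2 fold change of 0.87 (SE 0.175, adjusted p = 0.0233, edgeR). Ifngr1, the binding chain, had a log2 fold change of 0.17 (SE 0.133, adjusted p = 0.466, edgeR).

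Irf1, a transcription factor that interferon gamma induces and that acts on p47 GTPase promoters, had 412, 412 and 462 normalized counts in scramble replicates 1, 2 and 3 and 431, 539 and 387 in knockdown replicates 1, 2 and 3. The groups overlapped, and the log2 fold change was 0.08 (SE 0.127, adjusted p = 0.762, edgeR). Not called either were Irf8 (log2 fold change 0.07), Jak1 (0.36, adjusted p = 0.0640), Jak2 (0.03), Nlrc5 (0.43, adjusted p = 0.0928), Socs1 (0.96, adjusted p = 0.291), Ptpn2 (−0.01) and Ciita, the master regulator of MHC class II (−0.61, adjusted p = 0.0784), all by edgeR.

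Of 9 genes of type I interferon signalling, 7 were tested, with a median of 0.31. Against 3.09% of all tested genes called higher, 2 of these 7 were called higher and 0 lower. These were Irf9, the DNA-binding part of the ISRE complex (log2 fold change 0.56, SE 0.118, adjusted p = 0.0217, edgeR), and Usp18, which removes ISG15 and dampens the receptor (2.09, SE 0.357, adjusted p = 0.0390, edgeR). Irf7, with 639, 311 and 443 normalized counts in scramble replicates 1, 2 and 3 and 1743, 1593 and 964 in knockdown replicates 1, 2 and 3, was separated between the groups without being called (1.62, SE 0.359, adjusted p = 0.0696, edgeR). Stat2 had a log2 fold change of 0.31 (adjusted p = 0.0927, edgeR), and the receptor chains Ifnar1 and Ifnar2 had 0.21 and 0.02.

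Genes that respond to interferons were then set beside the family. Among 12 type I interferon-stimulated genes, 7 were called higher and 0 lower, the median log2 fold change was 2.63, and all 12 had knockdown libraries above every scramble library. Ifit1, an RNA-binding antiviral protein, had the largest called difference of the list (3.55, SE 0.509, adjusted p = 0.0331, edgeR). The median log2 fold change of 13 tested interferon gamma-stimulated genes was 0.60. Of these, 7 were called higher and 0 lower, against 3.09% of all tested genes called higher. In 8 of these 13, all knockdown libraries lay above all scramble libraries, against 15.2% of all tested genes. Those called act in antigen presentation by MHC class I (Tap1, log2 fold change 1.17, adjusted p = 0.00286; Tap2, 0.69, adjusted p = 0.0121; and Psmb8, Psmb9 and Psmb10 of the immunoproteasome, 0.60 to 0.96), or are Cd274 (0.72, adjusted p = 0.0237) and Cxcl10 (0.89, adjusted p = 0.0328), all by edgeR.

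Other genes that interferon gamma typically induces were not called. Cxcl9, a chemokine, had a log2 fold change of −0.03 (SE 0.295), and the MHC class II genes H2-Aa, H2-Ab1 and Cd74 had −0.31, −0.39 and −0.34 (adjusted p = 0.263, 0.239 and 0.272, edgeR). Wars1 went the other way (0.36, SE 0.109, adjusted p = 0.0741, edgeR), with all knockdown libraries above all scramble libraries. Batf2 had 0.08 (SE 0.382) with overlapping groups. The guanylate-binding proteins, GTPases that load onto pathogen vacuoles after the p47 GTPases, had a median of 1.45. Of the 11 members, 4 were called higher and 0 lower, against 3.09% of all tested genes called higher. These were Gbp3 (log2 fold change 1.80, adjusted p = 0.0294), Gbp7 (1.45, adjusted p = 0.0321), Gbp9 (1.54, adjusted p = 0.0450) and Gbp10 (1.85, adjusted p = 0.0322), all by edgeR. Not called were Gbp11, which had the largest log2 fold change of the list (1.95, SE 0.575, adjusted p = 0.137, edgeR), and Gbp6 (1.65, SE 0.335, adjusted p = 0.0560, edgeR), although all knockdown libraries of both lay above all scramble libraries. The other 5 not called, Gbp2, Gbp2b, Gbp4, Gbp5 and Gbp8, had log2 fold changes from −0.41 to 0.62. Of 10 genes for the Atg8 conjugation machinery, which places p47 GTPases on vacuoles, 0 were called by edgeR or by DESeq2, 1 had an unadjusted p under 0.05 by edgeR, and their log2 fold changes lay between −0.25 and 0.19.

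**Figure D4:**
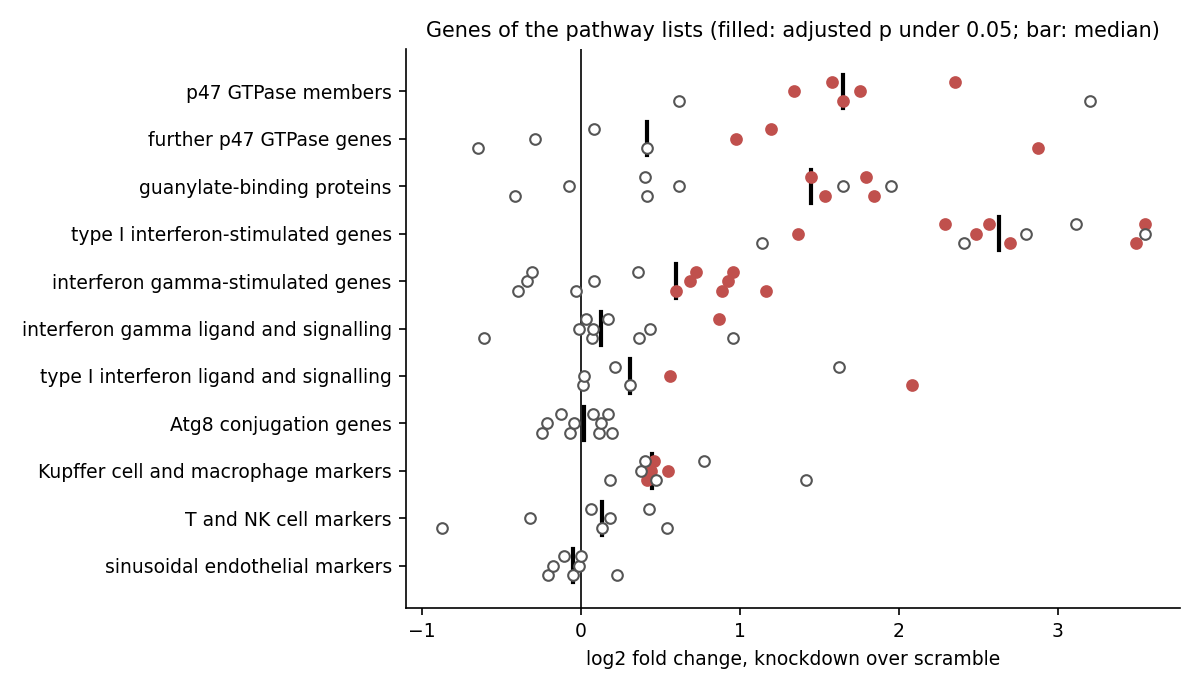
log2 fold change, knockdown over scramble (x axis), of each tested gene in 11 lists (y axis); filled circles had an adjusted p under 0.05 by edgeR, open circles did not, and black bars are medians. The p47 GTPases (median 1.65) and the guanylate-binding proteins (1.45) lie to the right, as do the type I interferon-stimulated genes (2.63), while the Atg8 conjugation genes (0.02) and the sinusoidal endothelial markers (−0.05) lie around 0.

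Markers of the other cells of liver were read beside these groups, because Kupffer cells and lymphocytes also express p47 GTPases. Of 10 Kupffer cell and macrophage markers, 4 were called higher and 0 lower, against 3.09% of all tested genes called higher. The called markers were Adgre1, Clec4f, Lyz2 and C1qa, with log2 fold changes of 0.41 to 0.55. Marco (1.41, adjusted p = 0.0797, edgeR) and Cd5l (0.78, adjusted p = 0.0586, edgeR) had larger ones and were not called. In 9 of the 10, all knockdown libraries lay above all scramble libraries, against 15.2% of all tested genes. The summed level of the 10 markers was 222 to 267 CPM in the scramble and 287 to 361 CPM in the knockdown libraries. Their median log2 fold change was 0.45, and none of the 10 was at 0 counts. Their part in the rise of the p47 GTPases was not tested.

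Of 13 T and NK cell markers, the cells that make interferon gamma, 7 were tested and 0 were called by edgeR or DESeq2, with 2 at an unadjusted p under 0.05 by edgeR. The summed level of the 7 tested markers was 5.94 to 9.65 CPM in the scramble and 7.62 to 9.32 CPM in the knockdown libraries. The markers below the filter on low counts are not in this sum. For B cells the summed levels were 13.7 to 25.9 and 17.8 to 33.7 CPM, with 0 of 5 markers called by edgeR or DESeq2 and 0 at an unadjusted p under 0.05. Of 6 neutrophil markers, Csf3r alone passed the filter on low counts and was not called, while Ly6g and Mpo were at 0 counts in every library. S100a8 had 1.03, 1.10 and 2.20 normalized counts in scramble replicates 1, 2 and 3 and 6.68, 10.5 and 3.62 in knockdown replicates 1, 2 and 3. For S100a9 these were 2.05, 1.10 and 0 and 11.4, 8.55 and 5.43. Both were higher in every knockdown library than in every scramble library, at counts too low to be tested. Csf3r stood at 2.50 to 3.67 CPM in the scramble and 3.51 to 4.61 CPM in the knockdown libraries. The part of the neutrophil markers in the p47 GTPase result was not tested. The sinusoidal endothelial markers summed to 333 to 371 and 315 to 359 CPM, with 0 of 7 called by edgeR or DESeq2 and 0 at an unadjusted p under 0.05. Among 8 hepatocyte markers, Fgb, a fibrinogen chain and acute phase protein, was called higher (log2 fold change 1.11, adjusted p = 0.00682, edgeR) and Tat, an enzyme of tyrosine breakdown, was called lower (−0.72, adjusted p = 0.00766, edgeR).

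The genes most like the family across libraries were found by Pearson correlation of log2 CPM with the mean of the 7 members over the 6 libraries. Because both groups enter this value, it mostly orders genes that differ between the groups, and it is given as a description. Of 12906 genes with an average log2 CPM of at least 1, 360 had r above 0.95. The first 10 were Snx10 (r = 0.998), Dtx3l (0.998), Polr1b (0.998), Lasp1 (0.997), Gbp7 (0.996), Parp9 (0.996), Gbp3 (0.996), G3bp2 (0.996), Ginm1 (0.996) and Prkar1a (0.996).

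These genes differed in the size of their change. Snx10, a sorting nexin of endosomes, had 397, 347 and 373 normalized counts in scramble replicates 1, 2 and 3 and 1393, 1241 and 728 in knockdown replicates 1, 2 and 3, with a log2 fold change of 1.59 (SE 0.238, adjusted p = 0.0166, edgeR). Dtx3l and Parp9, partners in a ubiquitin ligase that interferons induce, had log2 fold changes of 0.91 (adjusted p = 0.00410) and 0.99 (adjusted p = 0.0111). G3bp2, a protein of stress granules, had 0.96 (adjusted p = 0.0148), and Polr1b, a subunit of RNA polymerase I, had 0.43 (adjusted p = 0.0333), all by edgeR. Lasp1, Ginm1 and Prkar1a had log2 fold changes of 0.30, 0.33 and 0.21 and were not called.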

How the data were processed

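RNA-seq of liver from 3 rAAV8-Scramble and 3 rAAV8-Hnf1aos1 mice was analysed, grouped by the sample titles. Per the methods, the authors trimmed reads with Trimmomatic, used STAR and GRCm38 for alignment, and took the reads that map once to exons with featureCounts; the submitters' processing notes name GRCm39 instead, the methods describe poly(A) selection where the labels describe ribosomal RNA depletion, and strand setting and annotation are not given in the sources used here. The deposited raw counts are whole numbers without normalization. The deposited TPM values come from the authors, by a computation not given in the sources used here. Deposited normalized counts and the authors' own DESeq2 comparison (fold changes and p-values) were not used.

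Raw counts without the 92 ERCC spike-in rows (1.18 to 1.52% of the counts of a library) were fitted in edgeR 4.0.16 (R 4.3.3) with TMM, filterByExpr, robust quasi-likelihood and the group as the only term, adjusted over 16327 genes by Benjamini-Hochberg and called under 0.05. log2 CPM used a prior count of 2. Ratios were compared by exact two-sided permutation. The chi-square statistic per gene between replicates was 7.73 to 31.9, where the same library sequenced again would give about 1 and an identical copy less. Alternatives were DESeq2 1.42.0, limma 3.58.1 (voom, and log2 of TPM plus 0.1 or 1), other scalings, filters of none or a mean of 50 counts, the replicate block, a log2 fold change limit of 1, Tgtp1 and Tgtp2 summed, and each library left out.

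Named genes were the members, Hnf1aos1, the listed genes that were called or are ligands, receptors or transcription factors of the interferon pathways, and the 10 genes most like the members; other listed genes named with values were chosen after these were seen. The members and lists were chosen with earlier results of these data known. A further gene of the interferon gamma list is not reported here and was left out of that list's counts and median. Wars is listed as Wars1, Gm12187 and Gm4951 had no match in the table, and the promoter of Iigp1 was not matched. Coordinates come from GENCODE M21, matched by symbol, and promoters from RefSeq. Figures were drawn with matplotlib 3.10.9.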

Additional observations from a re-analysis of the deposited data

How the results depend on the processing

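The direction of all 7 members was the same in all alternatives run. Of the 7, 5 were called, and 4 to 7 were called with DESeq2, limma's voom, the TPM values, the other scalings, a mean of at least 50 counts, the fold change limit and the summed pair. With no filter on low counts 2 were called, while 7 had an unadjusted p under 0.05. With each library left out in turn, 1 to 7 members were called and their median log2 fold change was 1.37 (without knockdown replicate 1) to 1.89 (without knockdown replicate 3), against 1.51 to 1.85 in the other alternatives; such fits have fewer samples. All genes called numbered 1032, and 103 (without scramble replicate 3) to 1881 (without knockdown replicate 3) with 1 library left out, 1902 with no filter, 3394 with library sizes from the spike-ins, 626 and 638 from the TPM values and 352 with the fold change limit. The spike-in scaling moved the median of all genes by 0.20 on the log2 scale and called 7 members.

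Fits without 1 library called 0 to 3 further p47 GTPase genes, 0 to 2 genes of interferon gamma and 0 to 3 of type I interferon signalling, 0 to 6 guanylate-binding proteins, 1 to 10 type I and 2 to 8 gamma interferon-stimulated genes, and 0 to 7 Kupffer cell markers. In each of these lists the fit without scramble replicate 3 gave the lowest count, alone or with others, and the fit without knockdown replicate 3 the highest, alone or with 1 other. Of the further p47 GTPase genes, Gm4841 was called lower without scramble replicate 2. The cause of these differences was not tested. DESeq2 called 12 of 12 type I interferon-stimulated genes and 6 of 11 guanylate-binding proteins.

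Replicate numbers are shared by the groups, but deviations of same-numbered libraries from their group means correlated at −0.0226, 0.0231 and 0.00321. No shared deviation was seen, though this cannot show whether the mice were paired, and the main fit used no pairing. With the replicate number as a block, 5 members and 878 genes in all were called, and the median log2 fold change of the members was 1.59.

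Each group had 3 mice. Reads shared by Tgtp1 and Tgtp2 limit the values of this pair.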
